A study of Macaca fascicularis with 18 samples.

Results

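A set of 236 genes was high in the kidney cortex of the cynomolgus monkey and low in both cerebral cortex and liver, out of 29324 Ensembl genes in the deposited table. The members were chosen by their measured tissue medians: a gene was taken when its median over the kidney libraries was at least 20 RPKM and at least 8 times the median of brain and also of liver. RPKM counts the reads on a gene relative to the gene's length and to the number of reads in the library, so that levels of different genes can be set side by side. The 18 RNA-Seq libraries came from 2 female animals, A1 and A2, of about 10 years, for which the labels give no treatment, with 3 samples each of cerebral cortex, kidney cortex and liver. The tissues are called brain, kidney and liver here, and a library is named by tissue, animal and sample number, such as kidney A2-2. Because the 3 samples of a tissue share an animal, their spread is not that between animals, and any test of A1 against A2 speaks of these 2 monkeys only.

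The rule left out liver A2-1, because this library stood apart from the other 5 liver libraries, and its values are given separately. Whether it holds the tissue of its label was not tested. Kidney A2-2 listed 12284 genes at 0, against 10734 to 11251 in the other 5 kidney libraries. RPKM values do not give the read total of each library, so no interval for counting error was computed. The table gives identifiers without symbols, and 0 of them were found in the RefSeq gene table used for names. The tissue labels could therefore not be checked against known marker genes, and the genes are described by their levels and by their rank among the 236 members (rank 1 has the highest kidney median). In tissue samples, more cells of a type and more RNA per cell cannot be told apart.

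The cortex of the kidney holds the glomeruli, which filter the blood, and the convoluted tubules, which take back most of the filtered salt, glucose, amino acids and phosphate. This work is done by epithelial cells of the successive nephron segments, each with its own set of membrane transporters, channels and enzymes, and such transporters are among the best known genes with expression largely limited to kidney. Liver shares many metabolic enzymes with the proximal tubule, while brain shares ion channels and adhesion molecules with several renal cell types. Which of the 236 genes belong to which of these groups was not analysed here.

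Of the 4068 genes with a kidney median of at least 20 RPKM, 5.80% were members. Of the 3832 others, 374 were at least 8 times higher than in brain but not liver, 211 were at least 8 times higher than in liver but not brain, and 3247 reached 8 times in neither. A further 953 genes met both ratios but had kidney medians below 20 RPKM. Since the tissue medians chose the members, these levels are a description and no test between tissues was made. The members nearest above the limit of 20 had kidney medians of 20.1, 20.2 and 20.5 RPKM, and the nearest genes below it had 19.7, 19.2 and 19.1 RPKM. At the limit of 8 times, the nearest members had 8.09, 8.13 and 8.33 times the higher of the other medians, and the nearest genes outside had 7.94, 7.86 and 7.84 times. The member list thus has no gap at either limit.

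The kidney medians of the members ran from 20.1 to 6808 RPKM, with a median of 70.6 RPKM. There were 91 members from 20 to below 50 RPKM, 60 from 50 to below 100, 77 from 100 to below 1000 and 8 at 1000 or more. The member of rank 1 had 6081, 5504 and 6277 RPKM in the kidney of A1 and 7339, 7427 and 7703 RPKM in that of A2, against at most 7.8 RPKM in any brain library and 77.3 to 121 RPKM in the liver libraries other than A2-1. Every A2 value of this gene lay above every A1 value. The next member, of rank 2, had 2427, 3153 and 1451 RPKM in A1 and 2482, 4132 and 2358 RPKM in A2, with overlapping animals. It was listed at 0 in all 6 liver libraries and in brain A1-2, A1-3 and A2-1. Rank 1 alone made up 14.8% of the summed kidney RPKM of all members, the highest 10 made up 41.4% and the highest 25 made up 58.7%.

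**Figure D1:**
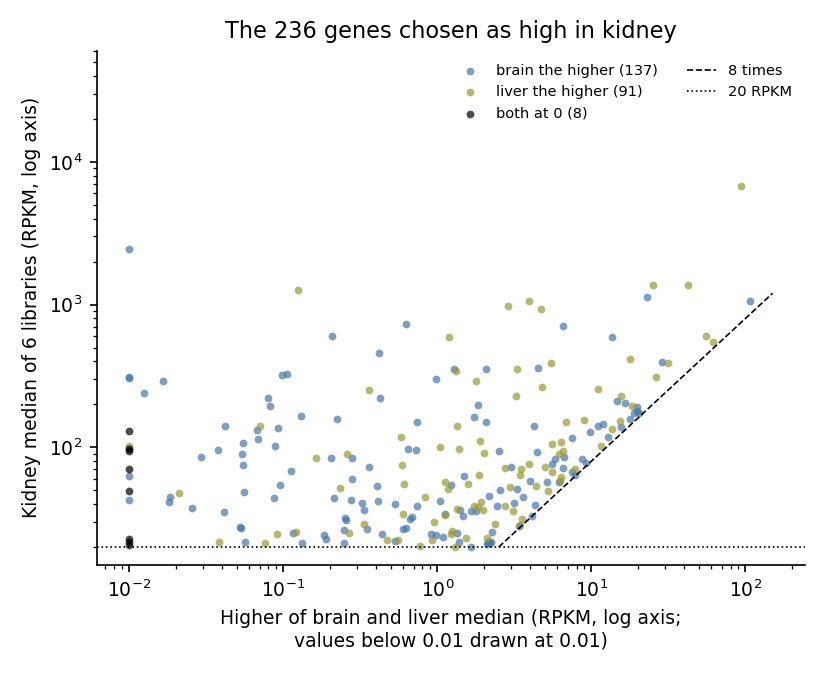
Kidney median (vertical axis) against the higher of the brain and liver medians (horizontal axis), both in RPKM on log axes, for each of the 236 members, coloured by which of the other tissues is higher. The dashed line marks 8 times and the dotted line 20 RPKM. Members reach down to both limits. The 8 members at 0 in both other medians are drawn at the left edge, together with members of very low medians above 0.

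Together the members took up 8.08% ± 0.404 of the summed RPKM in kidney (SD, n = 6 libraries), 0.168% ± 0.0133 in brain (SD, n = 6) and 0.175% ± 0.0268 in liver without A2-1 (SD, n = 5). The share was 8.05%, 8.45% and 7.37% in the kidney libraries A1-1 to A1-3 and 8.41%, 7.93% and 8.27% in A2-1 to A2-3. The ranges of both animals overlapped, so the summed share did not separate A1 from A2. In liver A2-1 the share was 29.6%, of which all but 1.24 percentage points came from ENSMFAG00000044722, a member described below.

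**Figure D2:**
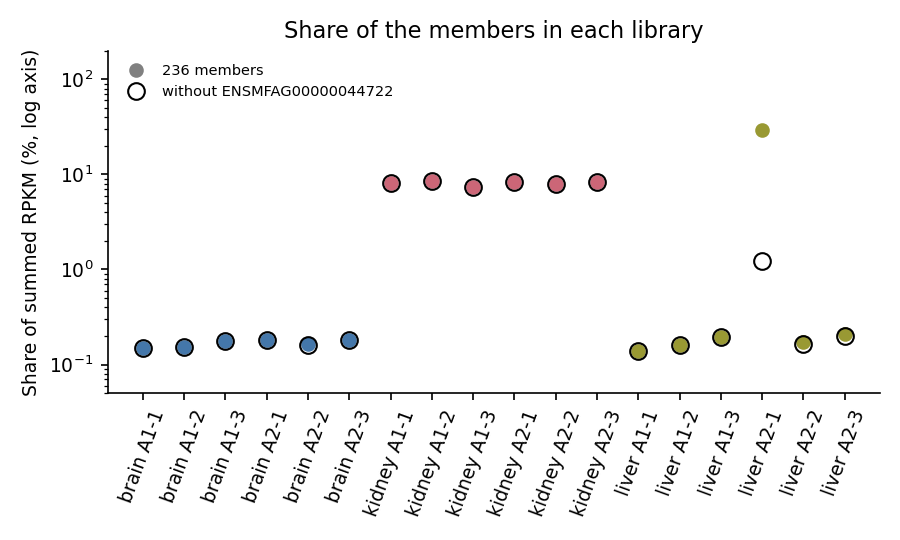
Share of the members in the summed RPKM of each of the 18 libraries (log axis, percent), for all 236 members (filled, coloured by tissue) and without ENSMFAG00000044722 (open circles). Kidney libraries lie between 7.37% and 8.45%, brain and 5 liver libraries at or below 0.208%, and liver A2-1 at 29.6% with that gene and 1.24% without it.

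In brain, and also in liver, most members had a median below 1 RPKM. The median over the members was 0.594 RPKM for the brain median and 0.453 RPKM for the liver median. Brain medians were below 1 RPKM for 141 members and liver medians for 137, and 45 members were below 0.1 RPKM in both. Brain was the higher of the other tissues for 137 members and liver for 91, while 8 members had a median of 0 in both. For the members with a median above 0 in either, the kidney median was 44.4 times the higher one at the median. Of these, 66 lay from 8 to below 16 times, 76 from 16 to below 100 times and 86 at 100 times or more, including 33 at 1000 times or more. The highest brain median of a member was 107 RPKM, for the member of rank 7, and the highest liver median was 93.0 RPKM, for the member of rank 1. High abundance in kidney therefore did not mean absence elsewhere.

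For 232 members, the lowest of the 6 kidney libraries was above the highest of the 6 brain and the other 5 liver libraries. The 4 members with overlap had ranks 183, 198, 202 and 221 and were all called higher in the kidney of A1, as given below. The 45 members below 0.1 RPKM in both other medians were compared between libraries. Of them, 24 to 31 were above 0 in the other 5 brain libraries and 42 in brain A2-3. Their summed RPKM was 0.930 to 2.52 in brain A1-1, A1-2, A1-3 and A2-1, 6.38 in brain A2-2 and 6.17 in brain A2-3, against 5364 to 8655 in kidney. At the median over the 45 genes, brain A2-3 held 0.0957% of the kidney median and the other brain libraries held 0.00273% to 0.0391%. The part of reads from another library in these low values was not tested.

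The rule was also applied to each animal alone. In A1 it gave 257 genes and in A2 it gave 227. The 183 genes found in both made up 71.2% of the A1 list and 80.6% of the A2 list. Values of the animal that had not chosen the genes are free of that choice. Of the 257 genes chosen in A1, 253 had a kidney median in A2 above both other medians of A2, 234 reached 4 times both, and 43 were below 20 RPKM in the kidney of A2. Of the 227 genes chosen in A2, all 227 had a kidney median in A1 above both other medians of A1, 222 reached 4 times both, and 23 were below 20 RPKM in the kidney of A1. Of the 236 members, 181 met the rule in each animal alone and 55 did not. The number of members depended on the scale of the values, since only 157 of the 236 remained, and no other gene was added, after division by median-of-ratios factors.

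Differences between samples of one animal were small for most members. The SD of log2(RPKM + 1) among the 3 samples of an animal, pooled over both animals, had a median of 0.18 over the members, with quartiles of 0.12 and 0.26. The same median was 0.13 over the 3832 other genes with at least 20 RPKM in kidney and 0.15 over the 12984 genes that reached 1 RPKM in 3 or more kidney libraries. An SD above 0.5 was found for 14 members. Kidney A2-2, the kidney library with the most genes at 0, was the lowest library of its animal for 60.2% of the members and the highest for 29.7%. Over the other genes with at least 20 RPKM in kidney the shares were 49.2% and 36.3%.

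The members with the largest spread moved in more than 1 pattern. For rank 66 the levels were 128, 228 and 59.5 RPKM in A1 and 149, 331 and 132 RPKM in A2. Kidney A1-2 and A2-2 were thus the highest samples of their animals and A1-3 the lowest of all. For rank 216 the levels were 27.3, 42.0 and 17.6 RPKM in A1 and 17.6, 50.3 and 18.6 RPKM in A2, and for rank 208 they were 26.4, 41.4 and 8.70 RPKM in A1 and 23.1, 30.7 and 17.9 RPKM in A2, both again highest in A1-2 and A2-2. A1-2 and A2-2 were the highest samples of their animals for 15.7% of the members and for 12.6% of the other genes with at least 20 RPKM in kidney. With A1-3 also the lowest of A1, an order read off rank 66, this held for 26 members (11.02%), the member of rank 2 among them, and for 4.25% of those other genes. These shares are a description, since genes of one sample are not independent.

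The members of ranks 20 and 21 were also highest in A1-2 and A2-2 of their animals, but A2-2 stood out less. For rank 20, kidney had 419, 1430 and 574 RPKM in A1 and 337, 377 and 232 RPKM in A2. For rank 21, kidney had 577, 1557 and 481 RPKM in A1 and 276, 297 and 148 RPKM in A2. Both were highest in A1-2 and lowest in A2-3. In rank 21 the lowest sample of A1 was A1-3, so it is among the members counted above for that order. Outside kidney these members varied as well. Rank 20 had 11.8, 10.9 and 84.2 RPKM in the liver of A1 and 7.00, 37.3 and 42.5 RPKM in the brain of A1, and rank 21 had 3.99, 5.22 and 40.4 RPKM in the liver of A1 and 1.97, 7.27 and 9.64 RPKM in the brain of A1. In both tissues of A1 the highest sample of both members was the one with number 3. In liver A2-1 the member of rank 20 reached 2188 RPKM and that of rank 21 reached 290 RPKM. The cell types behind these values were not tested.

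The question whether the kidneys of both animals held the members at the same level was tested with limma on the 6 kidney libraries. This contrast was not used by the rule, although the medians were taken over both animals. A gene was called at a Benjamini-Hochberg adjusted p below 0.05 over all 12984 genes and a difference of at least 1 in log2(RPKM + 1). Of the 236 members, all of which passed the filter on low values, 24 were called (10.2%), 9 higher in A2 and 15 higher in A1. Over all 12984 genes 2.93% were called, 1.26% higher in A2 and 1.67% higher in A1, and over the 3832 other genes with at least 20 RPKM in kidney 1.96% were called. A member can meet the rule through the animal in which it is high, so these shares are a description and no support for a difference between members and other genes. Among the 181 members that met the rule in each animal alone, 10 were called (5.52%), and the median absolute difference over the 181 was 0.33. The median absolute difference was 0.37 for all members, 0.18 for those other genes and 0.19 for all genes, and the median signed difference was -0.09, -0.03 and -0.02 (A2 minus A1). With no limit on the size of the difference, 103 members passed (43.6%), 44 of them higher in A2, where 17.5% of all genes passed. The samples of both animals did not overlap for 135 members, 59 with A2 above A1 and 76 with A1 above A2, where 38.1% of all genes and 40.6% of the other genes with at least 20 RPKM in kidney did not overlap. Of the variance of the members' log2 values over the 6 kidney libraries, 80.5% lay between the animals, against 65.4% for the other genes with at least 20 RPKM in kidney. Members that met the rule through 1 animal enter this share and the counts before it, so these too are a description only.

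**Figure D3:**
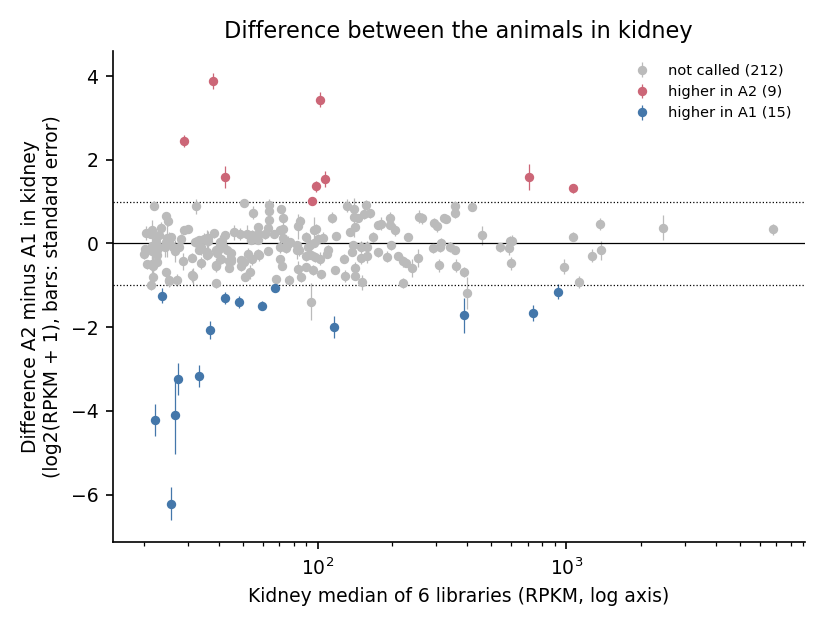
Difference between the animals in kidney (A2 minus A1, log2(RPKM + 1), vertical axis, bars give the standard error from limma) against the kidney median (RPKM, log axis) for the 236 members, with 3 samples per animal. The 9 members called higher in A2 and the 15 called higher in A1 are coloured, and the dotted lines mark a difference of 1.

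The called members ranked from 7 to 221 by kidney median. Of the 25 highest members 5 were called, those of ranks 7 and 12 higher in A2 and those of ranks 10, 11 and 21 higher in A1. Rank 7 had 564, 599 and 659 RPKM in A1 and 1502, 1470 and 1572 RPKM in A2, a difference of 1.32 ± 0.10 in log2(RPKM + 1) (SE, adjusted p = 8.25e-05 in limma). Rank 11 had 1078, 1100 and 1057 RPKM in A1 and 415, 241 and 400 RPKM in A2, a difference of -1.65 ± 0.19 (SE, adjusted p = 0.000594 in limma). In both genes all samples of one animal lay well apart from those of the other. Rank 11 met the rule in each animal alone, but rank 7 did not. The adjusted p of rank 7 is therefore no independent support for its difference. Differences of the 9 members higher in A2 ran from 1.01 to 3.88 and those of the 15 members higher in A1 from 1.07 to 6.22 in size. In 6 of the 9 and in 8 of the 15, the mean of the lower animal was still at least 20 RPKM. Only 10 of the 24 called members met the rule in each animal alone.

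The members with the largest differences in each direction are given with all their values. These genes and ENSMFAG00000044722, described last, were picked for their values and did not meet the rule in each animal alone, so their adjusted p describes the size of the difference against the spread of these samples and is no independent support for it. ENSMFAG00000046397, of rank 171, had 5.24, 3.40 and 6.17 RPKM in the kidney of A1 and 93.8, 69.4 and 93.6 RPKM in that of A2. The lowest A2 sample was thus above the highest A1 sample by a wide margin, and limma gave a difference of 3.88 ± 0.19 (SE, adjusted p = 7.42e-06). Its highest value in any brain library or liver library was 0.109 RPKM, in liver A2-3. ENSMFAG00000004003, of rank 84, had 16.4, 22.5 and 12.5 RPKM in A1 and 187, 183 and 202 RPKM in A2, a difference of 3.44 ± 0.18 (SE, adjusted p = 9.67e-06 in limma). This gene was at or below 0.145 RPKM in all 12 brain and liver libraries. Neither gene could thus be compared between the animals outside kidney.

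The reverse was seen for ENSMFAG00000032049, of rank 202, with 109, 50.3 and 163 RPKM in the kidney of A1 and 1.01, 0 and 0.119 RPKM in that of A2. The difference was -6.22 ± 0.40 (SE, adjusted p = 2.64e-05 in limma), the largest of all members. Its kidney median of 25.7 RPKM over 6 libraries was a value that none of the samples came near, since the median fell between the animals. It was listed at 0 to 0.250 RPKM in the brain libraries and the other 5 liver libraries, and at 15.3 RPKM in liver A2-1, which the labels assign to A2. The member of rank 221 had a like pattern in kidney, with 43.4, 40.2 and 57.6 RPKM in A1 and 4.19, 1.14 and 0.484 RPKM in A2. Reads shared between similar genes can set such values, and their part was not tested. Of the 15 members higher in A1, 8 had at least 10% of their kidney median in liver A2-1, and 1 of the 9 members higher in A2 did, while the share over all members was 30.9%. The difference between these counts was not tested.

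**Figure D4:**
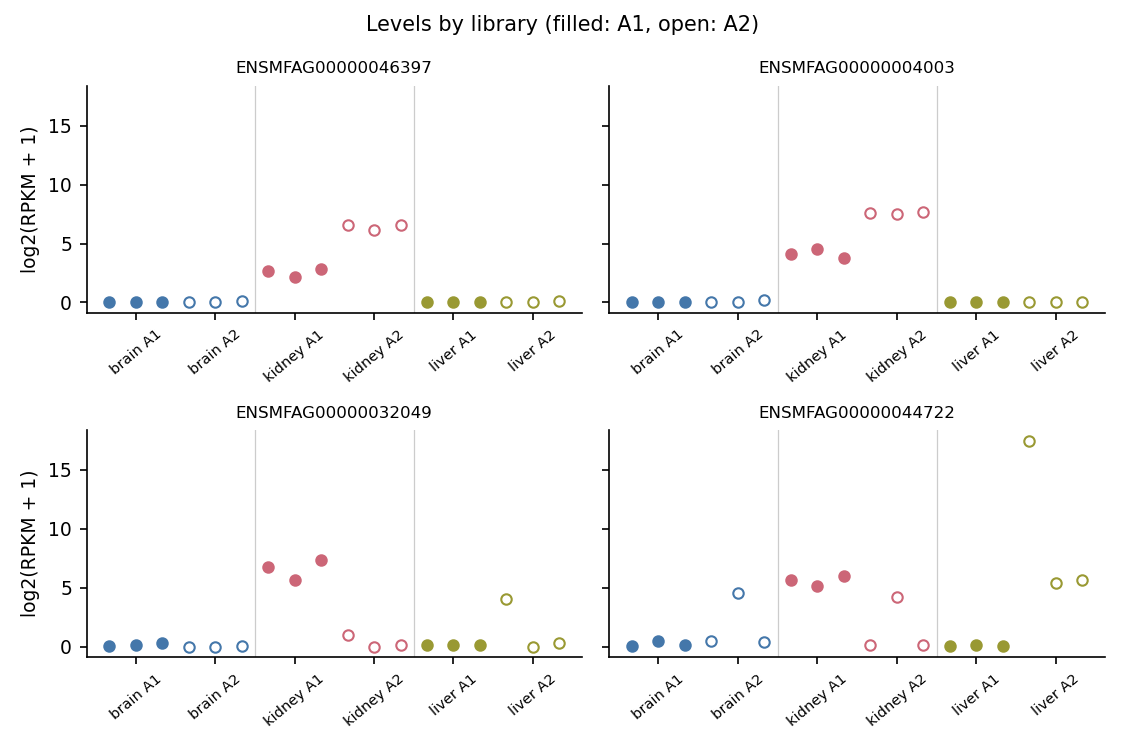
Levels of 4 members in log2(RPKM + 1) in each of the 18 libraries, coloured by tissue, with A1 filled and A2 open. The members ENSMFAG00000046397 and ENSMFAG00000004003 are high in the kidney of A2, ENSMFAG00000032049 in the kidney of A1, and ENSMFAG00000044722 is highest in liver A2-1 and present at lower levels in libraries of all 3 tissues.

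ENSMFAG00000044722, of rank 198, met the rule with values unlike those of the other members. It had 49.4, 35.6 and 61.7 RPKM in the kidney of A1 and 0.081, 17.97 and 0.096 RPKM in that of A2. The A1 samples lay above the A2 samples without overlap, but A2-2 stood far from the other A2 samples. The difference of -4.11 ± 0.93 (SE, adjusted p = 0.0167 in limma) had the largest standard error of the 24 called members, and the call was lost in 5 of 15 other settings, in which the difference stayed between -4.32 and -3.93. In liver A2-1 the gene had 183894 RPKM, and it was also found in liver A2-2 with 41.7, liver A2-3 with 49.6 and brain A2-2 with 23.2 RPKM, while the remaining brain and liver libraries had at most 0.426 RPKM. Its low liver median of 0.084 RPKM came from the 3 samples of A1, since liver A2-2 and A2-3 were at the level of the kidney of A1.

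The same libraries held low levels of other genes that are high in liver A2-1. There were 4 such genes besides ENSMFAG00000044722 with at least 10000 RPKM in liver A2-1, at most 100 RPKM in every other library and at most 0.2 RPKM in at least 1. As a percentage of their level in liver A2-1, the median of these 4 genes was 0.0307%, 0.0164% and 0.0287% in kidney A1-1 to A1-3, 0.0111% in kidney A2-2, 0.0156% in brain A2-2, 0.0218% in liver A2-2 and 0.0255% in liver A2-3. For ENSMFAG00000044722 the percentages in the same 7 libraries were 0.0269%, 0.0193%, 0.0336%, 0.00977%, 0.0126%, 0.0227% and 0.0270%. In the remaining 10 libraries the median of the 4 genes was at most 0.000211% and ENSMFAG00000044722 at most 0.000232%. In the 7 libraries the percentages of the 4 genes spread most in kidney A1-3, from 0.0172% to 0.0439%, and the value of ENSMFAG00000044722 lay within or just below the range of the 4 in each. In the remaining 10 libraries the lowest of the 4 was listed at 0 and the highest reached 0.00115%. When this share of liver A2-1 was subtracted from every library and the rule applied again, ENSMFAG00000044722 was the only member lost, 235 members remained and no gene was added. The origin of the share was not tested.

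Liver A2-1 had not been used to choose the members, so their levels there are free of the rule, but a single library gives no test. At the median over the members it held 1.39% of the kidney median. It was above each of the other 5 liver libraries for 123 members and below each of them for 58. The same counts were not made over all genes, so these show nothing particular to the members. In liver A2-1 35 members (14.8%) reached at least 50% of their kidney median and 15 reached at least 100%, while 44 were listed at 0. In each of the other liver libraries at most 1 member reached 50%, but the rule itself kept the median of those 5 libraries low, so that setting them beside liver A2-1 is a description only. The members most abundant in kidney were mostly low in liver A2-1. Of the 25 highest, 16 had less than 1% of their kidney median there and 3 had at least 10%.

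After ENSMFAG00000044722, the members with the highest ratios had ranks 93, 164, 76 and 20. Rank 164 had 35.8 to 46.3 RPKM in the 6 kidney libraries, 0.076 to 0.559 RPKM in the other 5 liver libraries and 491 RPKM in liver A2-1. Rank 76 had 33.8 to 285 RPKM in kidney, at most 8.58 RPKM in the other liver libraries and 902 RPKM in liver A2-1. These 4 members were higher in liver A2-1 than in any other library, kidney included. Whether liver A2-1 holds the tissue of its label was not tested.

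**Figure D5:**
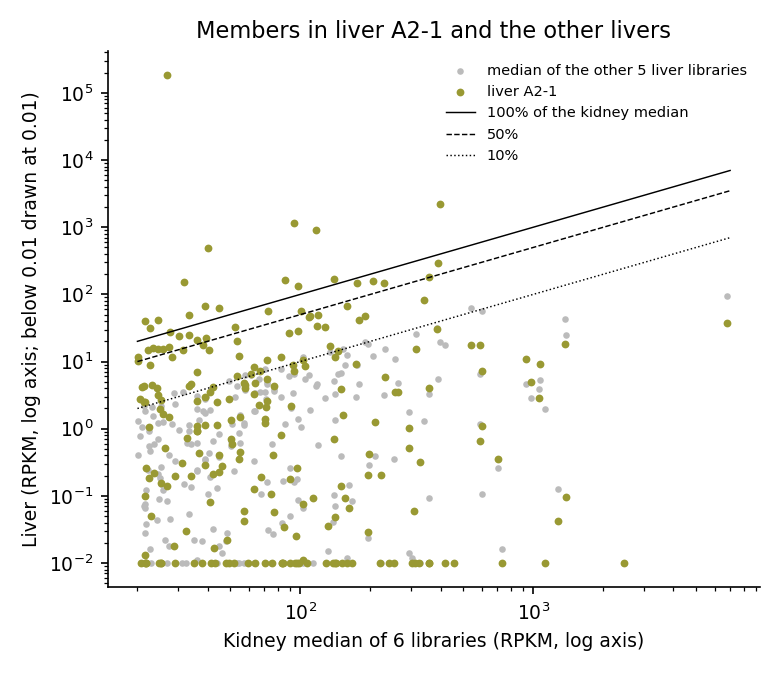
Level of the 236 members in liver A2-1 (coloured) and the median of the other 5 liver libraries (grey) in RPKM against the kidney median, both on log axes. The lines mark 100%, 50% and 10% of the kidney median. In liver A2-1 35 members lie at or above the line of 50%, and ENSMFAG00000044722 stands alone at 183894 RPKM.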

How the data were processed

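Reads were mapped by the authors to the Ensembl genome of the species using STAR, and they deposited one table of RPKM values on a linear scale, with 1 column per library and no pooling of replicates. According to the table's name the values rest on unique reads, and whether Cufflinks or featureCounts made them is not stated. All 18 columns were assigned through the sample descriptions. The members follow from the medians of 6 brain, 6 kidney and 5 liver libraries. The members and lists were chosen with earlier results of these data known. The marker lists could not be applied, as 0 identifiers matched a symbol, and the 4 identifiers printed were chosen after their values were seen.

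RPKM values are not counts, so no count model was used. Animals were compared on log2(RPKM + 1) in the 6 kidney libraries with limma 3.58.1 in R 4.3.3 (intensity trend, Benjamini-Hochberg adjustment), for genes that reached 1 RPKM in 3 or more of them. Brain and liver were left out of this fit because genes near 0 there have little spread. The added 1 shrinks differences of low genes. The fit was tested on simulated data. Python 3.11.15 was used for the remaining steps. The table does not give the depth of each library, so the counting error of low values is not known.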

Additional observations from a re-analysis of the deposited data

Results flagged for a closer look

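Brain, kidney and liver were screened for a library standing off from its neighbour by more than 0.625 of the range of 6 (Dixon's value for 6 samples). The screen covered the summed share of the members, the summed level of the members below 0.1 RPKM in both other medians, and the 4 named members. A gap of this size was found in 7 of 18 groups. Chance gives about 1 in 20, but the counts cannot be set against each other, since the 4 named members were chosen after their values were seen and liver A2-1 was already known to stand apart. Most of the members' share in liver A2-1 was ENSMFAG00000044722, and without it the share was 1.24%, against 0.139% to 0.198% in the other 5 liver libraries. Liver A2-1 stood apart from the other liver libraries in 4 of the 7: in the members' share of summed RPKM (29.6%), in the summed level of the members below 0.1 RPKM in both other medians (31.9 RPKM, of which the member of rank 195 made up 27.2 RPKM, with 21 of the 45 members above 0 against 19 to 27 in the other livers), and in ENSMFAG00000032049 (15.3 RPKM) and ENSMFAG00000044722 (183894 RPKM). Brain A2-2 stood apart with 23.2 RPKM of ENSMFAG00000044722. Brain A2-3 stood apart with 0.095 RPKM of ENSMFAG00000046397 and 0.145 RPKM of ENSMFAG00000004003. In liver A2-1, which the rule did not use, 35 members had at least 50% of their kidney median.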

How the results depend on the processing

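The number of members was 145 with a kidney median of at least 50 RPKM, 414 with a ratio of at least 4 and 157 with median-of-ratios factors over 17 libraries, and 231 to 246 when each kidney library was left out in turn. The other settings of the rule gave between 170 and 332 members. The 24 members called between the animals became 103 with the adjusted p alone and, in a comparison chosen after the data were seen, 135 without overlap of the samples. Over all genes, 380 were called and 2272 with the adjusted p alone. Leaving out each kidney library in turn gave 24 to 28 called members and 350 to 394 called genes. The other pseudocounts, filters, factors and the fits over 17 or 18 libraries gave 18 to 25 called members. With the sample number as a replicate block, 26 members and 387 genes were called. Same-numbered kidney samples deviated from their animal means with correlations across genes of 0.25, -0.095 and 0.039. Differently numbered samples were not compared in this way, so whether the numbers pair the animals was not tested. Of the 4 named members, 3 kept their call in all 15 other settings. For ENSMFAG00000044722 the adjusted p in limma was above 0.05 without a filter (0.0639), with 18 libraries (0.334) and without A1-1 (0.0626), A1-2 (0.0529) or A1-3 (0.0509), and ranged from 1.11e-05 to 0.334. In liver A2-1, 30.9% of the members had at least 10% of their kidney median. Without read totals, low values have no known counting error.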
